A study of Mus musculus with 4 samples.

Results

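The transcripts of 9 chemokine receptors carried by marrow cells were followed in whole tibial bone marrow of obese mice with and without treadmill training. The receptors were Cxcr2, Cxcr4, Ccr1, Ccr2, Cx3cr1, Ccr7, Cxcr5, Cxcr3 and Ackr1. They were chosen by gene symbol from the 55401 genes of the deposited transcript tables, and all 9 had a mean level above the minimum set for the test, which 18596 genes passed. The rule uses no measured value, but the receptors were proposed with earlier results of these data known.

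Chemokine receptors are proteins of the cell membrane that pass a signal to Gi proteins when a chemokine binds, and the cell then moves toward the source of the chemokine. In bone marrow, the stroma makes Cxcl12, which holds neutrophils and progenitor cells in place through Cxcr4, while signals through Cxcr2 favor the exit of neutrophils to the blood. Ccr2 is needed for classical monocytes to leave the marrow, Ccr7 and Cxcr5 guide lymphocytes within lymphoid organs, and the atypical receptor Ackr1 binds chemokines without G protein signaling.

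The Ob group, labelled HFD, and the Ob + Exe group, labelled HFD and Exercise, were male C57/B6 mice, and both ate a high-fat diet that was started at 8 weeks of age. After 6 weeks of the diet, the Ob + Exe mice ran on a treadmill for 12 weeks, with 6 days of running in each week and 1 h on each day, and the diet was continued in both groups. Of 9 mice per group, 2 RNA-seq libraries per group were available here (Ob 1, Ob 2, Ob + Exe 1 and Ob + Exe 2). There was no lean or lean trained group in these libraries, so the values show running under the diet and not the diet itself. The labels number the libraries as replicates without saying that each came from its own mouse, so the p values measure only the spread between these libraries.

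The label of each library names bone marrow, and also mesenchymal stem cells as the cell line and fibroblast as the cell type. The libraries had the makeup of whole marrow. The neutrophil gene S100a8 stood between 11957 and 36037 FPKM and the globin gene Hbb-bs between 17525 and 43732 FPKM, whereas the summed level of 6 fibroblast markers was 53.0 to 80.8 FPKM. FPKM is the number of fragments scaled to the length of the transcript and the size of the library, so levels of different genes can be compared with it. The values behind these levels rested on 8702 to 9952 Mb of aligned bases per library. In whole marrow, a smaller number of cells of a type and less RNA per cell cannot be told apart.

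Mean levels over the 4 libraries ran from 152 FPKM for Cxcr4 to 2.26 FPKM for Cxcr3 (plot of the 9 receptors by library). Cxcr4 stood at rank 325 of the 18596 genes tested. Ccr2 stood at rank 1036, Ccr1 at 1510, Cxcr2 at 1597 and Ackr1 at 2978. Cx3cr1 stood at rank 6262, and the lymphocyte receptors Ccr7, Cxcr5 and Cxcr3 stood at 9840, 10043 and 10419. In that order of mean levels, the range over the 4 libraries did not overlap between Cxcr4 and Ccr2, between Ackr1 and Cx3cr1 and between Cx3cr1 and Ccr7. The ranges of the other neighbors in that order overlapped.

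**Figure D1:**
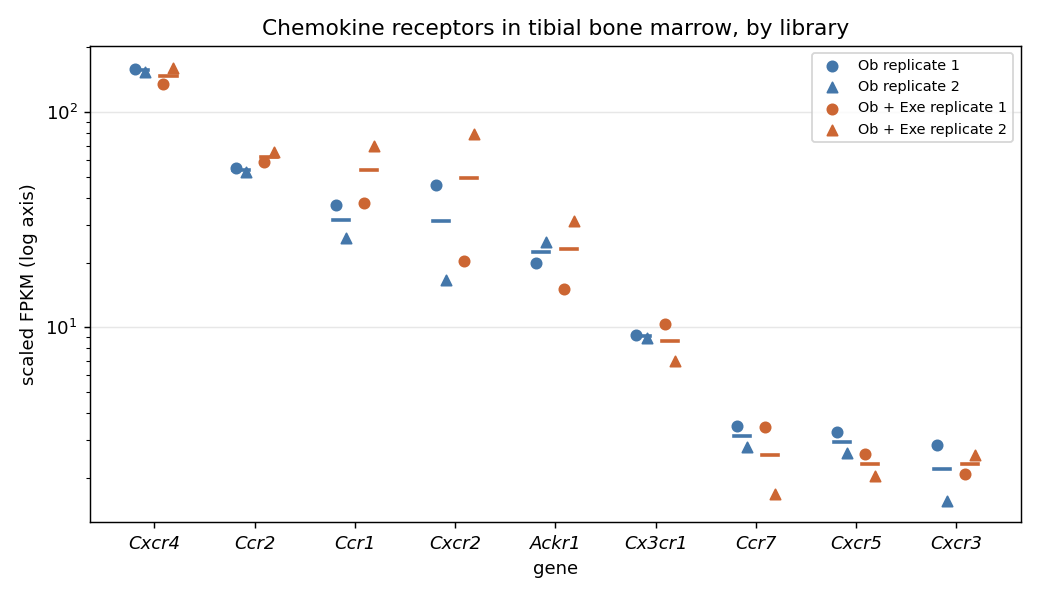
Scaled FPKM of the 9 chemokine receptors in the 2 Ob and the 2 Ob + Exe libraries, on a log axis, with 1 point per library. Cxcr4 sits at the top between 134.6 and 161.3 FPKM, and the points of Cxcr2 spread from 16.5 to 79.0 FPKM with both groups mixed.

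Taken over 23 chemokine receptor genes, the 9 receptors made up between 94.8% and 96.0% of the summed receptor FPKM in each library. Cxcr4 alone held 45.2% and 50.3% of that sum in Ob 1 and Ob 2, and 44.7% and 36.9% in Ob + Exe 1 and Ob + Exe 2. The share of Cxcr2 was 13.03% and 5.41% in Ob, beside 6.75% and 18.1% in Ob + Exe. The share of Ccr1 was 10.5% and 8.55% in Ob, beside 12.6% and 15.9% in Ob + Exe. Thus both Ob + Exe libraries had a smaller share of Cxcr4 and a larger share of Ccr1 than both Ob libraries, while the shares of Cxcr2 overlapped. These shares were not tested, and they are parts of 1 sum, so a higher share of 1 receptor lowers the others.

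No receptor passed the test between Ob + Exe and Ob. A gene was called when its unadjusted limma p was under 0.05 and its log2 fold change was above 1 or below -1. This gave 0 of 9 receptors, where it gave 3.74% of all genes tested, 1% as higher and 2.74% as lower in Ob + Exe. The number of receptors with an unadjusted p under 0.05 was 0 with limma on log2 FPKM, where 5.05% of all genes had one, and also 0 with limma voom on read equivalents. With limma on log2 FPKM no gene of the whole table had an adjusted p under 0.05, and the smallest was 0.739. The log2 fold change was above 0 for 4 receptors and below 0 for 5, with a median of -0.03, beside -0.02 for all genes. Both Ob + Exe libraries lay on 1 side of both Ob libraries for 3 of 9 receptors, and this was so for 32.6% of all genes tested. Ccr2 and Ccr1 lay above, as 14.3% of all genes did, and Cxcr5 lay below, as 18.3% did.

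**Figure D2:**
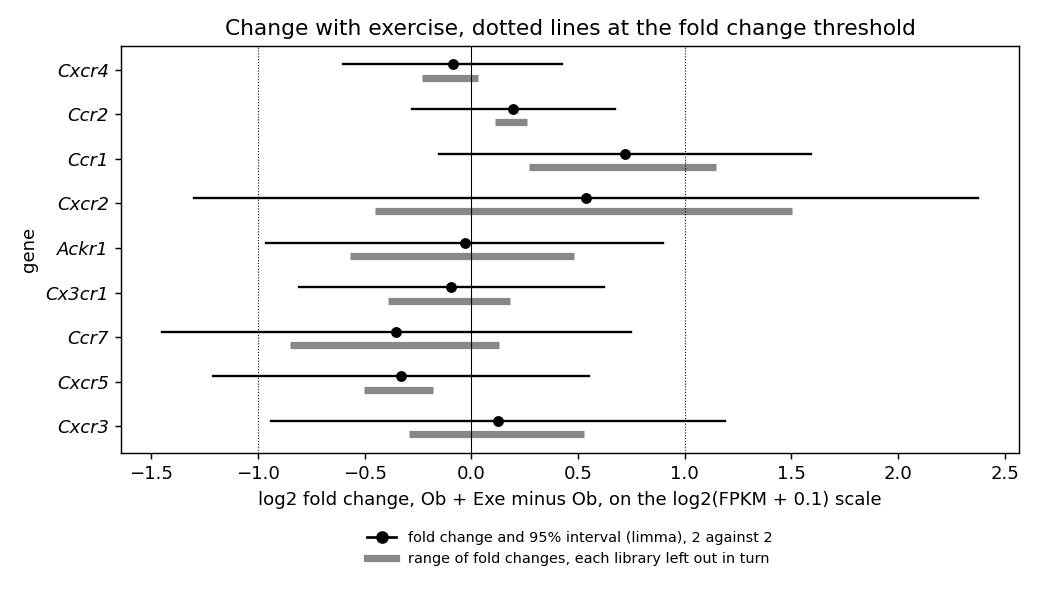
Log2 fold change of each receptor, Ob + Exe minus Ob, with its 95% confidence interval from limma over 2 libraries per group. All 9 intervals cross 0, and those of Ccr2 and Cxcr4 are the shortest while that of Cxcr2 runs from -1.30 to 2.37.

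To show the regions from which Cxcr4, the most abundant receptor, and Ccr1 and Cxcr2, the most variable of the abundant myeloid receptors, are transcribed, the 250 bases before the RefSeq start of Cxcr4, Ccr1 and Cxcr2 are printed 5′ to 3′ on the strand of the gene, from GRCm38.p6. They lie at chr1:128592300-128592549 (minus strand), chr9:123968693-123968942 (minus strand) and chr1:74153744-74153993 (plus strand). Capitals mark GAGGAA, a core that the myeloid factor PU.1 can bind, TATAAA, the TATA box, and GGGCGG, the GC box, each searched on both strands.
Cxcr4: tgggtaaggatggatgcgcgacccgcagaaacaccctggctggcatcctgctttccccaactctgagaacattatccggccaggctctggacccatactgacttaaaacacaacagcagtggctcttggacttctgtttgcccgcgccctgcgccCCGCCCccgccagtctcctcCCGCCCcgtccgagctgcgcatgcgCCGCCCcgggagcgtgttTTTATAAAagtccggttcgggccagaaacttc
Ccr1: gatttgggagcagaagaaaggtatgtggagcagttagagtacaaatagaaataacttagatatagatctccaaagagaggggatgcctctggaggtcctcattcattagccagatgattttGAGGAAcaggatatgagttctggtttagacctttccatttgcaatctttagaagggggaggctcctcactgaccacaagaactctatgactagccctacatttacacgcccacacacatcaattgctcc
Cxcr2: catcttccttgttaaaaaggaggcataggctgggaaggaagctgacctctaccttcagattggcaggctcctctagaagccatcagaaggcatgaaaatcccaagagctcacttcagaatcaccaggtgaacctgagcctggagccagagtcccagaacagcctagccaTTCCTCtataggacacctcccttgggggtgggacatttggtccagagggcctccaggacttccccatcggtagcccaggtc
The Cxcr4 window had 61.2% G and C and held GGGCGG on the other strand, as CCGCCC, at 95, 75 and 50 bases before the start. It also held TATAAA at 30 bases before the start, which overlaps TTTATA, the same motif on the other strand, at 32. The Ccr1 window had 43.6% G and C and held GAGGAA at 129 bases before the start. The Cxcr2 window had 54.4% G and C and held TTCCTC, the same motif on the other strand, at 81. The RefSeq table matched 7 of 9 receptors, without Ccr7 and Cxcr5. Of these 7, GAGGAA was found in 3, among them Cxcr3, where 23.3% of 32851 windows of this length held it. TATAAA and GGGCGG were found in Cxcr4 alone, where 12.4% and 32.7% of all windows held them. TTGCNNAA, a form of the C/EBP site, was found in 0 of 7 windows and in 9.56% of all. These matches are a description of the letters and not of binding, and no reading of them was made against the expression values.

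Cxcr2, the receptor for the neutrophil chemokines Cxcl1, Cxcl2 and Ppbp, was the receptor that varied most between libraries of the same group. This gene (ENSMUSG00000026180.8) lies on chromosome 1 from 74153989 to 74161246. Its level was 46.0 and 16.5 FPKM in Ob 1 and Ob 2, and 20.3 and 79.0 FPKM in Ob + Exe 1 and Ob + Exe 2. Ob 1 thus lay between the Ob + Exe libraries and Ob 2 below both, so the groups overlapped. The means were 31.3 ± 20.8 in Ob and 49.6 ± 41.5 in Ob + Exe (SD, n = 2), with a log2 fold change of 0.54 (SE 0.744, 95% CI -1.30 to 2.37, limma adjusted p = 0.975). Within Ob the libraries differed 2.78-fold and within Ob + Exe 3.89-fold. Read equivalents numbered 9493, 3356, 3630 and 13096, so at least 3356 stood behind each value. Among 5820 genes with a mean of at least 10 FPKM, the spread of Cxcr2 within groups was at percentile 99.3, while those of Cxcr4 and Ccr2 were at 21.8 and 8.04. Without Ob + Exe 2, the log2 fold change of Cxcr2 was -0.45, and without Ob + Exe 1 it was 1.51.

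Most neutrophil markers had their libraries in the same order as Cxcr2. From high to low, the order of the libraries for Cxcr2 was Ob + Exe 2, Ob 1, Ob + Exe 1 and Ob 2. It was shared by 7 of 10 neutrophil markers (Mmp8, Mmp9, Ly6g, Retnlg, Ltf, S100a8 and S100a9), and by 5.62% of all genes tested. The summed level of these 10 markers was 48917 and 27974 FPKM in Ob and 36132 and 66161 FPKM in Ob + Exe. Of the 10 markers 9 had a log2 fold change above 0, 0 were called, and none was at 0 in any library. Against the mean log2 level of the neutrophil markers, Cxcr2 stood at -4.66 and -5.42 in Ob, beside -5.50 and -4.19 in Ob + Exe. The range over the 4 libraries was 1.31 on this log2 scale, where that of Cxcr2 itself was 2.25. The groups overlapped on both scales. The part of neutrophil content in the spread of Cxcr2 was not tested. The 6 markers of neutrophil precursors, such as Elane and Prtn3, summed to 1359 and 757 FPKM in Ob and to 1509 and 1011 FPKM in Ob + Exe. The sum was highest in Ob + Exe 1, as were Prtn3, Ms4a3 and Fcnb, while Elane, Mpo and Ctsg were highest in Ob 1.

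Cxcr4, the receptor for Cxcl12 that is present on most marrow leukocytes and on progenitors, stayed close to 1 level. This gene (ENSMUSG00000045382.6) lies on chromosome 1 from 128588199 to 128592293. Its level was 159.6 and 153.8 FPKM in Ob and 134.6 and 161.3 FPKM in Ob + Exe. The highest and the lowest library were both Ob + Exe, and they differed 1.20-fold. The means were 157 ± 4.05 and 148 ± 18.9 (SD, n = 2), with a log2 fold change of -0.09 (SE 0.207, 95% CI -0.60 to 0.42, limma adjusted p = 0.980). The interval did not reach a log2 fold change of 1 in either direction. As deposited, before scaling between libraries, the values were 163.6 and 159.5 in Ob, beside 134.7 and 151.7 in Ob + Exe, so both Ob + Exe libraries were then below, and they were also below after quantile normalization.

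The ratio of Cxcr2 to Cxcr4 within a library does not depend on the scaling between libraries. It was 0.288 and 0.107 in Ob, beside 0.151 and 0.490 in Ob + Exe. Cxcr4 was thus 2.04 to 9.30 times as abundant as Cxcr2, and both groups held a library with a high and a library with a low ratio. On the log2 scale the means were -2.51 ± 1.01 and -1.88 ± 1.20 (SD, n = 2). They differed by 0.63 (exact permutation test, two-sided, p = 0.667), and the smallest p that 2 against 2 libraries allow is 0.333. The difference was -0.08 without Ob 2 and -0.22 without Ob + Exe 2, so its direction rested on single libraries.

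**Figure D3:**
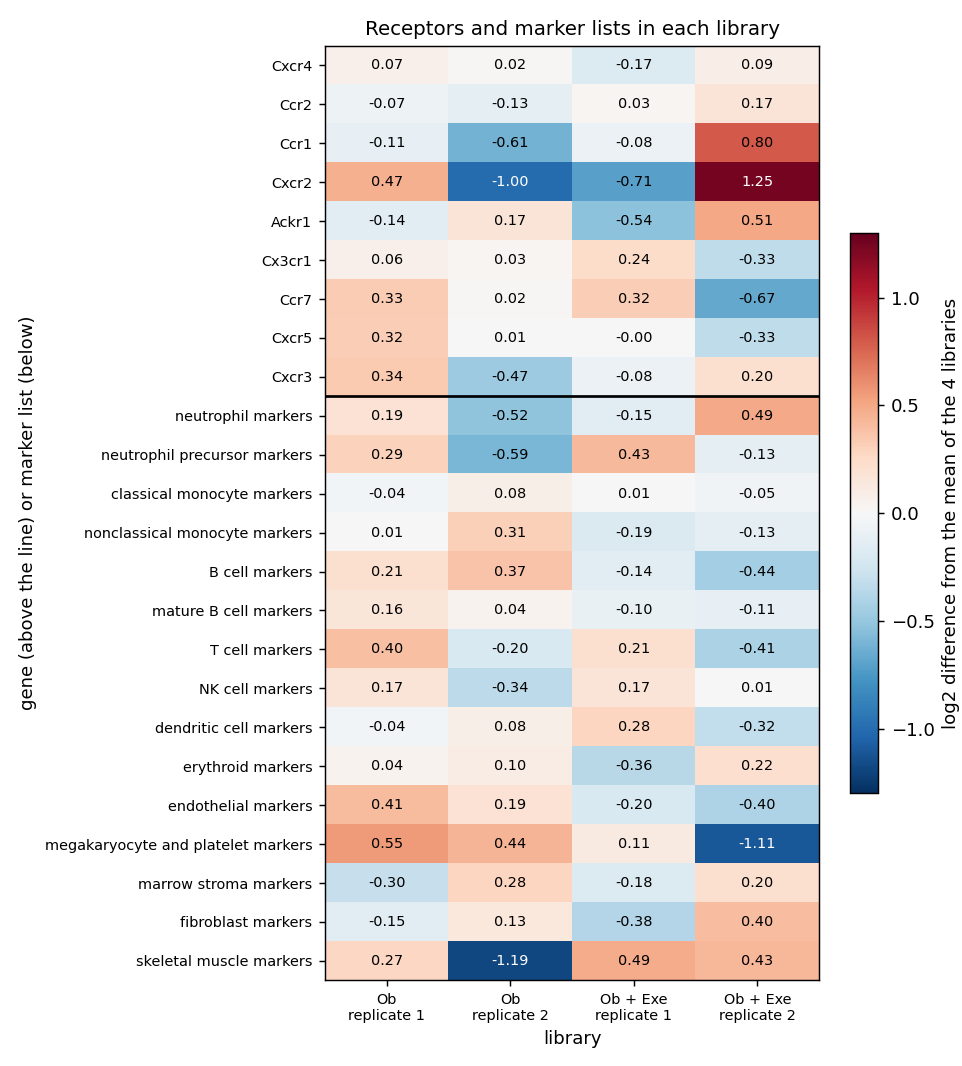
Heatmap of the deviation of each receptor and of marker lists from its mean over the 4 libraries, as log2 values, with 1 column per library. Cxcr2 spans 2.25 on this log2 scale and Cxcr4 0.26, and the neutrophil markers are highest in Ob + Exe 2 and lowest in Ob 2, as is Cxcr2.

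Ccr1, a receptor of neutrophils and monocytes for Ccl3, Ccl5, Ccl6 and Ccl9, had the smallest p among the 9 receptors. This gene (ENSMUSG00000025804.5) lies on chromosome 9 from 123962124 to 123968692 and has 1 annotated transcript. Its level was 37.0 and 26.1 FPKM in Ob and 37.8 and 69.5 FPKM in Ob + Exe. Both Ob + Exe libraries were above both Ob libraries after scaling, but Ob + Exe 1 and Ob 1 lay side by side. As deposited the values of these libraries were 37.8 and 37.9 FPKM, and the groups overlapped. The means were 31.6 ± 7.70 and 53.7 ± 22.4 (SD, n = 2), with a log2 fold change of 0.72 (SE 0.353, 95% CI -0.15 to 1.59, limma adjusted p = 0.959). Leaving out each library in turn gave log2 fold changes from 0.27 to 1.15. Without Ob + Exe 1 the value was 1.15 and passed both criteria, which called Ccr1 with a limma adjusted p of 0.535, and the lone Ob + Exe library was then taken to vary like the Ob libraries. Against the mean log2 level of the neutrophil markers, Ccr1 stood at -4.97 and -4.76 in Ob, beside -4.61 and -4.37 in Ob + Exe, which differ by 0.38. Against the classical monocyte markers it stood at -0.30 and -0.91 in Ob, beside -0.31 and 0.62 in Ob + Exe, where the groups overlapped.

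Ccr2, the receptor for Ccl2 and Ccl7 on classical monocytes, was steady within groups. This gene (ENSMUSG00000049103.14) lies on chromosome 9 from 124101950 to 124113557. Its level was 55.0 and 52.9 FPKM in Ob and 58.8 and 65.0 FPKM in Ob + Exe. Both Ob + Exe libraries were above both Ob libraries, and this was so for the scaled values, for the values as deposited and after quantile normalization. The difference was small, with means of 54.0 ± 1.51 and 61.9 ± 4.41 (SD, n = 2) and a log2 fold change of 0.20 (SE 0.193, 95% CI -0.28 to 0.67, limma adjusted p = 0.959). The 6 classical monocyte markers, among them Ly6c2 and Ctss, summed to 574 and 529 FPKM in Ob and to 507 and 596 FPKM in Ob + Exe. Of these, 2 had a log2 fold change above 0 and 4 below, and 0 were called. Against their mean log2 level Ccr2 stood at 0.28 and 0.10 in Ob, beside 0.33 and 0.53 in Ob + Exe.

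Ccr1 and Ccr2 lie close together on chromosome 9. Ccr3, the eotaxin receptor of eosinophils, lies between Ccr1 and Ccr2 and stood at 3.25 and 4.40 FPKM in Ob and at 3.25 and 2.87 FPKM in Ob + Exe. Ob 1 and Ob + Exe 1 thus held nearly the same level of Ccr3. Ccr3 was not called.

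Cx3cr1, the fractalkine receptor of nonclassical monocytes and macrophages, was at a lower level. This gene (ENSMUSG00000052336.7) lies on chromosome 9 from 119901616 to 120069879. Its level was 9.18 and 8.97 FPKM in Ob and 10.4 and 6.94 FPKM in Ob + Exe. The Ob + Exe libraries lay on both sides of the Ob libraries. The means were 9.07 ± 0.151 and 8.67 ± 2.44 (SD, n = 2), with a log2 fold change of -0.09 (SE 0.290, 95% CI -0.81 to 0.62, limma adjusted p = 0.985). The 6 nonclassical monocyte markers, such as Itgal and Treml4, summed to 53.0 and 62.0 FPKM in Ob and to 59.8 and 60.9 FPKM in Ob + Exe. Of these 6, 2 had a log2 fold change above 0, Itgal and Treml4, and 4 below, with a median of -0.36, and 3 had both Ob + Exe libraries below both Ob libraries. Itgal makes up much of the sum. Ace was called lower, from 4.13 and 7.23 FPKM in Ob to 2.10 and 3.003 FPKM in Ob + Exe (log2 fold change -1.09, limma adjusted p = 0.959).

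The assignment of reads to the transcripts of Cx3cr1 and Cxcr5 varied far more between libraries than their gene sums. For Cx3cr1, the transcript ENSMUST00000064165.4 held 99.4% and 65.9% of the FPKM in Ob, beside 0% and 28.3% in Ob + Exe. The transcript ENSMUST00000215016.1, which starts upstream and has 3 exons, held 0.583% and 34.1% in Ob, beside 64.7% and 71.7% in Ob + Exe. In Ob + Exe 1 the remaining 35.3% went to ENSMUST00000177637.1, a transcript that runs over several other genes such as Wdr48, Gorasp1 and Csrnp1. With the most abundant transcript only, the log2 fold change of Cx3cr1 was -4.07, and it rested on a transcript listed at 0 in Ob + Exe 1. For Cxcr5, the transcript ENSMUST00000062215.7 held 100% in Ob 1, Ob 2 and Ob + Exe 1 and 0% in Ob + Exe 2, where 74.1% went to ENSMUST00000215293.1 and 25.9% to ENSMUST00000213357.1. The log2 fold change of its most abundant transcript was -2.57, against -0.33 for the gene sum. StringTie estimates such shares, so they were taken as estimates, and the gene sums were used as the levels. The gene sums include these assignments as well. In Ob + Exe 2, ENSMUST00000213357.1, which lies outside ENSMUST00000062215.7, gave 0.529 of the 2.04 FPKM of Cxcr5, from 11 read equivalents. In Ob + Exe 1, ENSMUST00000177637.1 gave 3.67 of the 10.4 FPKM of Cx3cr1. Cxcr5 overlaps Bcl9l on the other strand, and Ackr1 overlaps Cadm3 on the same strand. Whether the counting used the strand was not given in the sources used here, so reads over such overlaps may have been split between the genes.

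**Figure D4:**
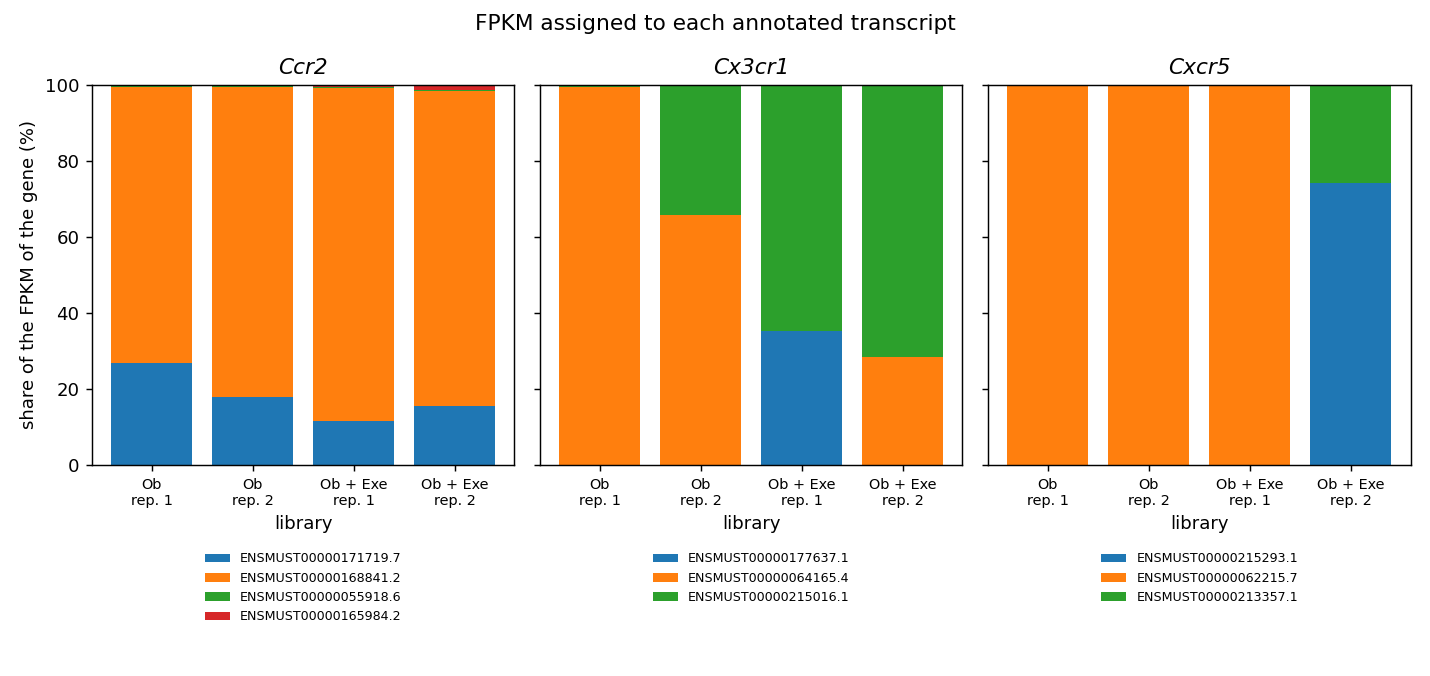
Share of the FPKM of a receptor gene that was assigned to each annotated transcript, in percent, for each of the 4 libraries. In Cx3cr1 the main transcript passes from 99.4% in Ob 1 to 0% in Ob + Exe 1, and Cxcr5 has another transcript in Ob + Exe 2 than in the other libraries.

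Cxcr4 and Cxcr2 kept mostly to 1 transcript, and Ccr1, Ccr7 and Cxcr3 have 1 annotated. The transcript ENSMUST00000052172.6 of Cxcr4 held 94.6% to 97.2% and ENSMUST00000106899.3 of Cxcr2 held 98.8% to 100%. For Ccr2, ENSMUST00000168841.2 held 72.4% and 81.4% in Ob, beside 87.6% and 82.8% in Ob + Exe, and ENSMUST00000171719.7 held 26.9% and 17.9% in Ob, beside 11.7% and 15.6% in Ob + Exe. Both Ob + Exe libraries thus had a larger share of the transcript with 2 exons than the Ob libraries. For Ackr1, ENSMUST00000038227.5 held 92.2% to 98.6% in Ob 1, Ob 2 and Ob + Exe 1 and 77.7% in Ob + Exe 2, where 17.3% went to ENSMUST00000194046.1 and 4.98% to ENSMUST00000194298.1. These shares were not tested.

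Ccr7, which leads dendritic cells and T cells toward Ccl19 and Ccl21, was near the level of the other lymphocyte receptors. This gene (ENSMUSG00000037944.8) lies on chromosome 11 from 99144196 to 99155077. Its level was 3.48 and 2.77 FPKM in Ob and 3.43 and 1.69 FPKM in Ob + Exe, from 182 to 468 read equivalents. The lowest library was Ob + Exe 2, and Ob + Exe 1 lay within the Ob values. The means were 3.12 ± 0.497 and 2.56 ± 1.23 (SD, n = 2), with a log2 fold change of -0.35 (SE 0.445, 95% CI -1.45 to 0.75, limma adjusted p = 0.970).

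Cxcr5, the receptor for Cxcl13 on mature B cells, lay below the Ob libraries in both Ob + Exe libraries. This gene (ENSMUSG00000047880.15) lies on chromosome 9 from 44511787 to 44561877. Its level was 3.26 and 2.61 FPKM in Ob and 2.58 and 2.04 FPKM in Ob + Exe, from 246 to 579 read equivalents. Ob 2 and Ob + Exe 1 lay side by side, and the groups overlapped after quantile normalization. The means were 2.93 ± 0.461 and 2.31 ± 0.382 (SD, n = 2), with a log2 fold change of -0.33 (SE 0.357, 95% CI -1.21 to 0.55, limma adjusted p = 0.965). The B cell markers lay in the same direction. Of the 8 B cell markers 8 had a log2 fold change below 0, 5 had both Ob + Exe libraries below both Ob libraries, and their sum was 226 and 242 FPKM in Ob and 181 and 145 FPKM in Ob + Exe. The most abundant were Cd79b and Vpreb3. Only Cd79a, a part of the B cell receptor, was called among them, with 48.4 and 44.4 FPKM in Ob and 21.4 and 23.6 FPKM in Ob + Exe (log2 fold change -1.04, limma adjusted p = 0.941). Of the 6 mature B cell markers, such as Ighd and Cd22, 4 had a log2 fold change below 0, and their sum was 97.3 and 91.9 FPKM in Ob and 84.6 and 66.9 FPKM in Ob + Exe. Against their mean log2 level Cxcr5 stood at -1.57 and -1.76 in Ob, beside -1.63 and -1.95 in Ob + Exe, where the groups overlapped. The part of B cell content in the level of Cxcr5 was not tested.

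Cxcr3, the receptor of activated T cells and NK cells for Cxcl9 and Cxcl10, was the lowest of the 9 receptors. This gene (ENSMUSG00000050232.6) lies on chromosome X from 101731535 to 101734269. Its level was 2.83 and 1.56 FPKM in Ob and 2.09 and 2.56 FPKM in Ob + Exe, from 180 to 333 read equivalents. Both Ob + Exe libraries lay between the Ob libraries. The means were 2.20 ± 0.895 and 2.32 ± 0.332 (SD, n = 2), with a log2 fold change of 0.13 (SE 0.431, 95% CI -0.94 to 1.19, limma adjusted p = 0.985). The 8 T cell markers, among them Lat and Cd3d, summed to 29.3 and 23.4 FPKM in Ob and to 29.3 and 20.0 FPKM in Ob + Exe. The 7 NK cell markers, among them Klrd1 and Klre1, summed to 20.5 and 16.9 FPKM in Ob and to 18.3 and 22.1 FPKM in Ob + Exe. None of these markers was called.

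Ackr1, which is known from erythroid cells and the endothelium of venules, was at a level close to the myeloid receptors. This gene (ENSMUSG00000037872.5) lies on chromosome 1 from 173331886 to 173333750. Its level was 20.0 and 24.8 FPKM in Ob and 15.1 and 31.3 FPKM in Ob + Exe. The lowest and the highest library were both Ob + Exe, and the groups overlapped. The means were 22.4 ± 3.39 and 23.2 ± 11.5 (SD, n = 2), with a log2 fold change of -0.03 (SE 0.378, 95% CI -0.96 to 0.90, limma adjusted p = 0.994). The 8 erythroid markers, with Hbb-bs and Hba-a1 at the top, summed to 58364 and 53529 FPKM in Ob and to 41713 and 65912 FPKM in Ob + Exe, and Ackr1 was also lowest in Ob + Exe 1 and highest in Ob + Exe 2. Against their mean log2 level Ackr1 ranged over 0.46, where its own range was 1.04. The 9 endothelial markers, such as Pecam1 and Vwf, summed to 32.1 and 31.3 FPKM in Ob and to 24.7 and 17.99 FPKM in Ob + Exe. All 9 of these had a log2 fold change below 0, and Plvap was called (log2 fold change -1.52, limma adjusted p = 0.959), while Ackr1 against them ranged over 1.46. The part of either cell type in the level of Ackr1 was not tested.

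The ligands of the receptors were mostly scarce in these libraries. Of 20 ligands listed for the receptors other than Ackr1, 15 passed the minimum and 9 had a mean of at least 1 FPKM. Of the 15 tested, 5 had a log2 fold change above 0 and 10 below, with a median of -0.31, and 0 were called with limma, also at an unadjusted p under 0.05.

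Cxcl12, the ligand of Cxcr4 made by the marrow stroma, stood at 93.1 and 142 FPKM in Ob and at 88.8 and 143 FPKM in Ob + Exe (log2 fold change -0.03, limma adjusted p = 0.993). Both groups thus held a similar pair of levels, and the libraries high in Cxcl12 were Ob 2 and Ob + Exe 2. The summed level of 6 markers of marrow stroma, among them Adipoq and Lepr, was also highest in these libraries. It was 13.8 and 21.0 FPKM in Ob and 14.8 and 24.3 FPKM in Ob + Exe. Not all of these markers followed the sum, as Ebf3 was lowest in Ob + Exe 2 (1.27 FPKM) and Pdgfra highest in Ob + Exe 1 (0.383 FPKM).

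Among the ligands of Ccr1, Ccl6 and Ccl9, which are made by myeloid cells of the mouse, had the highest levels. Ccl6 stood at 149 and 99.999 FPKM in Ob and at 140 and 224 FPKM in Ob + Exe, and Ccl9 at 34.5 and 32.5 FPKM and at 40.1 and 59.6 FPKM. For Ccl9 both Ob + Exe libraries were above both Ob libraries (log2 fold change 0.55, limma adjusted p = 0.959), and for Ccl6 the groups overlapped. Ccl3 lay in the other direction, at 4.02 and 4.25 FPKM in Ob and 1.72 and 2.88 FPKM in Ob + Exe, with a log2 fold change of -0.86 and the smallest p of the ligands (limma adjusted p = 0.959). Ccl5 stood at 14.9 and 7.92 FPKM in Ob and at 7.31 and 10.5 FPKM in Ob + Exe, with overlap. The ligands of 1 receptor thus lay on both sides of 0.

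Among the ligands of Cxcr2, Ppbp, which is stored in platelets, was the most abundant. Its level was 214 and 113 FPKM in Ob and 135 and 48.5 FPKM in Ob + Exe (log2 fold change -0.95, limma adjusted p = 0.959). The groups overlapped, and the platelet markers, with Pf4 and Itga2b at the top, summed to 259 and 225 FPKM in Ob and to 245 and 92.6 FPKM in Ob + Exe, with the lowest value in the same library as Ppbp. Gp5 and Gp1ba were called lower among these 6 markers (limma adjusted p = 0.959 for each), where 2.74% of all genes tested were. All 6 had a log2 fold change below 0. Cxcl5 stood at 2.03 and 4.41 FPKM in Ob and at 1.83 and 0.948 FPKM in Ob + Exe, with both Ob + Exe libraries below (log2 fold change -1.12, limma adjusted p = 0.959). Cxcl1 was at 0 for Ob 1 and Ob 2 and at 0.257 and 0.0713 FPKM in Ob + Exe, Cxcl2 was at 0 to 0.693 FPKM and Cxcl3 at 0 to 0.104 FPKM, all from at most 72 read equivalents in a library.

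The ligands of Cxcr3, Cxcr5, Ccr7, Ccr2 and Cx3cr1 were scarce, and no ligands were listed for Ackr1. Cxcl9 stood between 0.552 and 2.43 FPKM and Cxcl10 between 1.39 and 4.65 FPKM, with overlapping groups, and Cxcl11 did not exceed 0.0636 FPKM. Cxcl13 stood at 0.0372 and 0.0692 FPKM in Ob and at 0.186 and 0.510 FPKM in Ob + Exe, but these values rested on 3, 5, 13 and 32 read equivalents (log2 fold change 1.45 on the scale of FPKM plus 0.1, limma adjusted p = 0.959). Ccl19 was listed at 0 in both Ob + Exe libraries and at 0.422 and 0.150 FPKM in Ob, and Ccl21a at 0 in Ob 1 and Ob + Exe 1. Ccl2, Ccl7 and Ccl12, the ligands of Ccr2, did not exceed 0.401 FPKM in any library. Cx3cl1, the ligand of Cx3cr1, did not exceed 0.334 FPKM. None of these ligands was called, while Ccl19, Cxcl13 and Cxcl9 were called under some of the alternative settings.

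**Figure D5:**
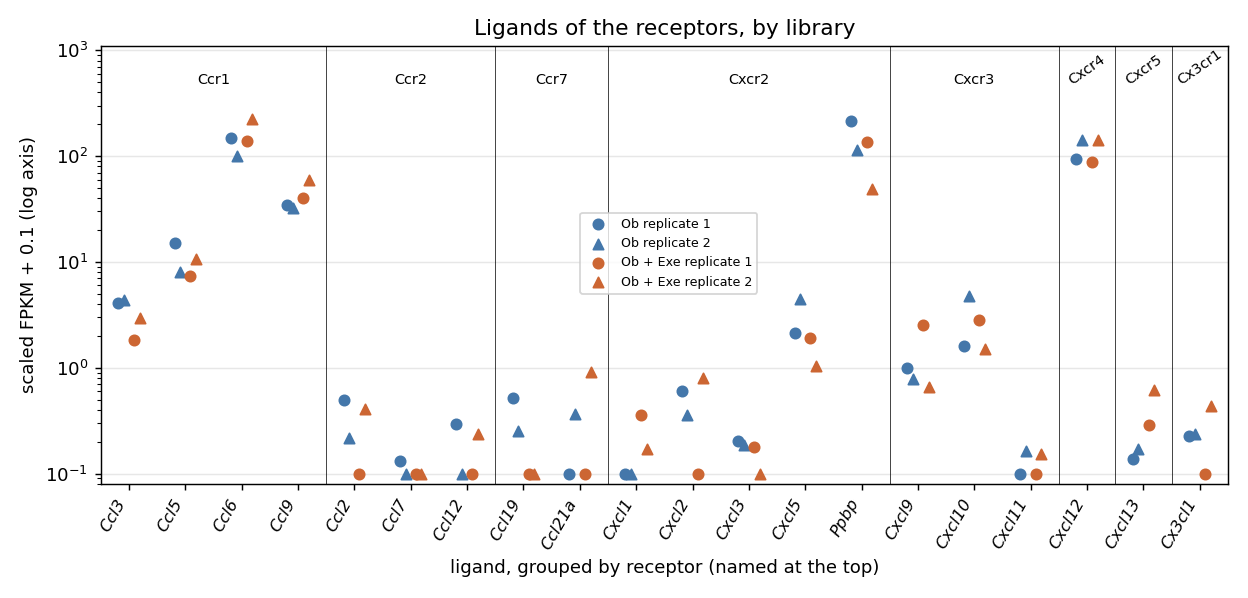
Scaled FPKM of the ligands in the 4 libraries, on a log axis. Cxcl12, Ccl6 and Ppbp are the abundant ligands, and Cxcl12 shows a similar pair of levels in both groups, 93.1 and 142 FPKM in Ob against 88.8 and 143 FPKM in Ob + Exe.

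Among 26 genes that carry or stop the receptor signal, 25 were tested and 0 were called. Of these, 21 had a log2 fold change above 0 and 4 below, with a median of 0.14, beside -0.02 for all genes. Both Ob + Exe libraries lay above both Ob libraries for 6 of the 25, where 14.3% of all genes did. Gnai2, the main Gi subunit of leukocytes, was the most abundant, with 331 and 232 FPKM in Ob and 263 and 358 FPKM in Ob + Exe. Gnb2, a beta subunit, stood at 181 and 187 FPKM in Ob and at 148 and 189 FPKM in Ob + Exe. Gnai2 had its libraries in the same order as Cxcr2, and so did Gnai3, Gng2, Rac2, Elmo1, Arrb1 and Rgs2, which makes 7 of the 25.

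Of the 14 other chemokine receptors, 10 were tested, 6 had a log2 fold change above 0 and 4 below, and 0 were called. The highest were Ccrl2, an atypical receptor, at 5.69 and 6.22 FPKM in Ob and 5.45 and 6.70 FPKM in Ob + Exe, and Ccr3. Ccr8 was listed at 0 in all 4 libraries. Cxcr1, which lies beside Cxcr2 on chromosome 1, stood at 1.44 and 0.715 FPKM in Ob and at 1.45 and 2.64 FPKM in Ob + Exe. Its lowest and highest libraries were those of Cxcr2, Ob 2 and Ob + Exe 2. Over all 50 tested genes of the pathway other than the 9 receptors, 32 had a log2 fold change above 0 and 18 below, and the smallest unadjusted p was that of Ccl3.

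For the 3 most abundant receptors, the genes with the most similar profile over the 4 libraries were looked for among 12402 other genes with a mean of at least 1 FPKM. The measure was the root mean square difference of the log2 values after each gene was centered on its mean. The nearest to Cxcr4 were Sephs1, Gm20604 and Get4, the first of these at 0.00964, and 113 genes were within 0.05. The nearest to Ccr2 were Ubqln1, Cand1 and Zfp273, the first at 0.0111, and 116 genes were within 0.05. Ccr1 had 0 genes within 0.05, and the nearest were Dgkh at 0.0584, Trem1, a receptor of neutrophils and monocytes, and Trim13. Trem1 stood at 9.41 and 7.59 FPKM in Ob and at 10.1 and 18.6 FPKM in Ob + Exe. With 4 libraries, such a likeness is a description of the profile only.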

How the data were processed

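Whole tibial marrow was collected by centrifugation, and poly-A RNA of 2 Ob and 2 Ob + Exe libraries was sequenced as pairs of 150-base reads. The authors cleaned the reads with fastp, removed rRNA, aligned to GRCm38 with HISAT2, handled the alignments with SAMtools and ran StringTie on the GENCODE vM25 annotation. Tool versions were not given in the sources used here. The authors deposited the coverage, an unnormalized signal of reads per base, and the FPKM of 142604 transcripts per library. Coverage times transcript length, divided by 150, gave read equivalents, 44310505 to 53038186 per library.

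FPKM were summed per gene. Scaling between libraries was by median-of-ratios (factors 0.940 to 1.04), genes with a mean of at least 0.1 FPKM were kept, 0.1 was added, and log2 values were fitted with limma 3.58.1 in R 4.3.3 with an intensity trend (2 residual and 3.79 prior degrees of freedom). Fold changes are on this scale and understate changes of scarce genes. P values were adjusted by Benjamini-Hochberg over all 18596 genes, and a gene was called when its p before adjustment was under 0.05 and its log2 fold change above 1 or below -1, as in the study's methods. The study's own test takes read counts, which these tables do not hold. The procedure was checked on simulated data, with planted changes larger than those of the receptors and a spread smaller than that of Cxcr2. The check thus does not show that changes as small as those of the receptors would be found. The mitochondrial transcripts, 37 in number, were listed at 0 in every library and were not used.

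The receptors and gene lists were chosen with earlier results of these data known. Named were all receptors with their transcripts, all ligands, the genes called and the 2 most abundant of each other list, and the 3 nearest profiles of the 3 most abundant receptors. Other genes sharing the library order of Cxcr2, and Cxcr1, were named after their values were seen. Alternatives were quantile normalization and no scaling, other pseudocounts and minimum levels, voom, no intensity trend, the most abundant transcript, the replicate number as a block, and leaving out each library. Tables and the exact test used Python 3.11.15, pandas 2.3.3 and scipy 1.17.1, and figures matplotlib 3.10.9. The result for 1 other receptor is not reported here.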

Additional observations from a re-analysis of the deposited data

How the results depend on the processing

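The 9 receptors kept their direction and stayed uncalled in 89 of 90 results under 10 settings other than leaving out a library. The exception was Cx3cr1 with limma voom, at a log2 fold change of 0.000345. With another minimum level, without the intensity trend or with the replicate block, the fold change of a receptor is the same by construction. In those settings only the call could change, and the kept direction carries no information. Leaving out 1 library in turn gave 0 to 1 receptors called, the 1 being Ccr1 without Ob + Exe 1. It turned the direction of 6 receptors, whose log2 fold changes then ran from -0.45 to 1.51 for Cxcr2, -0.23 to 0.033 for Cxcr4, -0.39 to 0.18 for Cx3cr1, -0.85 to 0.13 for Ccr7, -0.29 to 0.53 for Cxcr3 and -0.57 to 0.48 for Ackr1. The log2 difference of the Cxcr2 to Cxcr4 ratio ran from -0.22 to 1.48. The cause was not tested.

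Beside 696 genes called, 270 were called with a minimum of 1 FPKM, 224 with a pseudocount of 1, 460 with voom, 1060 without the intensity trend, 1000 without a minimum, and 598 to 1851 without 1 library, the highest counts being those without Ob + Exe 2 (1851) and Ob + Exe 1 (1229). The other pathway genes called were 3 without a minimum (Cxcl1, Ccr4 and Ccl19), 2 without the trend (Cxcl13 and Ccl19), and 0 to 3 without 1 library, the 3 being Ccl3, Cxcl9 and Cxcl2 without Ob + Exe 2. Of the 8 marker genes called, Fos kept the call with each other minimum, pseudocount and scaling, with voom, without the trend, with the replicate block and without each library, and Ace, Acta1, Cd79a, Col1a1, Gp1ba, Gp5 and Plvap lost it under at least 1. With the most abundant transcript only, 1 other pathway gene was also called. It was Plcb3, at a log2 fold change of -4.81, where its gene sum gave -0.12. Without scaling, the median log2 fold change of all genes was -0.10 in place of -0.02.

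Same-numbered libraries did not deviate together (correlation -0.106 over 18596 genes and -0.235 over the 12409 with at least 1 FPKM), so the numbers were not taken to pair them. With the replicate block 740 genes, 0 of 9 receptors and 0 of the other pathway genes were called. The block does not alter the fold changes in this balanced design, so the receptor directions could not change. A crossed pairing, added after seeing the data, called 803 genes, 0 of 9 receptors and 1 other pathway gene, and gave 2 of 9 receptors an unadjusted p under 0.05. The adjusted p was under 0.05 for 18 genes with the block and for 11 with the crossed pairing, where it was for 0 without a block. At least 180 read equivalents stood behind each receptor value, and only 2 libraries behind each mean.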

Other observations

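Among cell types not set beside a receptor above, the 7 dendritic cell markers, with Bst2 and Siglech at the top, summed to 67.2 and 75.5 FPKM in Ob and to 93.2 and 45.2 FPKM in Ob + Exe, and 0 were called. Of 6 fibroblast markers, with Fn1 and Col1a2 at the top, 3 had a log2 fold change above 0 and 3 below, with a median of 0.17. Fn1 (log2 fold change 0.40) and Dcn (0.57) had both Ob + Exe libraries above both Ob libraries, and Col1a1 was called lower, at 3.14 and 3.04 FPKM in Ob and 1.17 and 1.85 FPKM in Ob + Exe (log2 fold change -1.02, limma adjusted p = 0.959). Of the skeletal muscle markers, of which 4 were tested, Acta1 was called higher, at 2.58 and 0.998 FPKM in Ob and 4.62 and 5.29 FPKM in Ob + Exe, while Mylpf stood at 4.63 and 4.11 FPKM and at 6.33 and 5.13 FPKM. Of 8 immediate early genes, with Ier2 and Dusp1 at the top, Fos was called higher, at 5.83 and 6.28 FPKM in Ob and 13.5 and 16.2 FPKM in Ob + Exe (log2 fold change 1.28, limma adjusted p = 0.941), and 7 of 8 had a log2 fold change above 0.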
